A study of Homo sapiens with 16 samples.

Results

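The keratin and keratin-associated genes were followed across 4 lists of open-chromatin peaks from U87 cells, an established human glioblastoma line. Members were the protein-coding genes whose symbol is KRT followed by digits and an optional letter, or starts with KRTAP. They numbered 149 of the 19974 protein-coding genes of the gene table, 55 keratins and 94 keratin-associated genes. A gene was counted as having a peak in a list when a peak touched the gene or the 1000 bp beyond either of its ends. The family was selected on its peaks in these lists, so the presence of peaks is given as a description and carries no test.

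Chromatin was measured by NicE-seq, in which an enzyme nicks exposed DNA, a polymerase fills the nicks with biotinylated nucleotides, and the tagged DNA is captured and sequenced. The 16 libraries form 4 groups of 4, all from U87. The vehicle group received DMSO. The belinostat group received belinostat, an inhibitor of histone deacetylases, at 1 µM for 24 h. The AsiDNA group was labelled as AsiDNA with DMSO, and the combination group as AsiDNA with belinostat. AsiDNA is a short double-stranded DNA that imitates a broken DNA end. No dose of AsiDNA is given, and the protocols name cells MTU87 and LTAU87 while the sample fields name U87, which leaves the manner of AsiDNA exposure unknown. The 4 libraries of a group share 1 deposited list. No spread between replicates can therefore be given, no p-value was computed, and depth per library is unknown. Intervals are 95% Wilson intervals for shares and exact Poisson intervals for densities, and cover counting error only.

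Keratins are the intermediate filament proteins of epithelia and hair. Each filament is built from pairs of one acidic type I and one basic type II keratin, whose genes lie in separate clusters on chromosome 17 and chromosome 12. Keratin-associated proteins are small cysteine-rich or glycine- and tyrosine-rich proteins that form the matrix around keratin filaments in the hair shaft, and their genes are short and lack introns. Glial cells build their filaments mainly from vimentin, nestin and GFAP. A peak marks exposed DNA and is not a measure of transcription.

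The members fell into 6 clusters, taken as runs of members with no more than 1 Mb between neighbours (hg38). The type II keratins were 27 genes at chr12:52168996-52952906. The chromosome 17 cluster, at chr17:40654665-41624575, held 28 keratins and 34 keratin-associated genes. The other 4 clusters held keratin-associated genes alone. They were 33 genes at chr21:30281309-31038476, 16 genes at chr21:44538981-44698044 within the gene TSPEAR, and 6 and 5 KRTAP5 genes at chr11:1584342-1697755 and chr11:71527267-71582875.

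Among markers of cell identity, peaks touched all 7 genes of a glioblastoma and mesenchymal list in every list of peaks, among them VIM, NES, CD44 and EGFR. Of 6 epithelial markers, ESRP2 and CLDN7 had a peak in every list, and CDH1, EPCAM, CLDN4 and ESRP1 had none in any. Of 4 neuronal markers 3 had a peak in every list, and of 4 immune markers 2 did. Peaks were thus also present at markers of cell types that a glioblastoma line does not hold, and 79.1% of all protein-coding genes had a peak in every list. The 4 lists held 130318 (vehicle), 138937 (belinostat), 138273 (AsiDNA) and 134865 (combination) peaks on chromosomes 1 to 22 and X.

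Upstream sequences of 5 members are shown. At 4 of them the peak of every list covered part of the 250 bases before the transcript start. This was also so at KRT34 (213 shared bases) and KRTAP2-3 (95), which are not shown. The fifth, KRTAP4-4, is a close copy of KRTAP4-2 with no peak in any list. They are the 250 bases before the start, 5′ to 3′ on the strand of the gene, from the RefSeq promoter table of GRCh38.p14. Capitals mark bases inside a peak in all 4 lists. KRT75 lies at chr12:52434372-52434621, KRTAP1-5 at chr17:41027209-41027458, KRTAP4-6 at chr17:41140545-41140794, KRTAP4-2 at chr17:41178222-41178471 and KRTAP4-4 at chr17:41160749-41160998, all on the minus strand.
KRT75: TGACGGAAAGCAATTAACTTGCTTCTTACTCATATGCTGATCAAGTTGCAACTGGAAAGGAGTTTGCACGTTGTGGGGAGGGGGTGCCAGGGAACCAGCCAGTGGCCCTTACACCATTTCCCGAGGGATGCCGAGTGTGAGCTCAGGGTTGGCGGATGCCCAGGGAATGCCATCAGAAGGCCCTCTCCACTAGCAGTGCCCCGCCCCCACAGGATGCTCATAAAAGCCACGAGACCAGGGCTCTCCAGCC
KRTAP1-5: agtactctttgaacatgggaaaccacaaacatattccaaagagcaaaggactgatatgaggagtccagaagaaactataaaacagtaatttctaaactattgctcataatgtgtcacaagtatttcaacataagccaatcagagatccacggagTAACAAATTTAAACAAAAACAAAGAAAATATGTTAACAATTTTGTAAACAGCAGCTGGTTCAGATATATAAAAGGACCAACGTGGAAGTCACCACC
KRTAP4-6: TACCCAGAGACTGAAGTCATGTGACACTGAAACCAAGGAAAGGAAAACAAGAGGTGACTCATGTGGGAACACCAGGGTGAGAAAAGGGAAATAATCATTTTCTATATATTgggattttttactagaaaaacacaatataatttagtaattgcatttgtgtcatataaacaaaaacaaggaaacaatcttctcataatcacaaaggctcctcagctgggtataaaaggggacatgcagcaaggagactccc
KRTAP4-2: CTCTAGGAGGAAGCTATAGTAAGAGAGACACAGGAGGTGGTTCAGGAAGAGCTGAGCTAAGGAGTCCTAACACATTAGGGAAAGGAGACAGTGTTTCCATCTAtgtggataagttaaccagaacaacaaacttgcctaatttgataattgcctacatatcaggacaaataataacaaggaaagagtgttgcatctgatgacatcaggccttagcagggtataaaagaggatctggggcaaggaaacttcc
KRTAP4-4: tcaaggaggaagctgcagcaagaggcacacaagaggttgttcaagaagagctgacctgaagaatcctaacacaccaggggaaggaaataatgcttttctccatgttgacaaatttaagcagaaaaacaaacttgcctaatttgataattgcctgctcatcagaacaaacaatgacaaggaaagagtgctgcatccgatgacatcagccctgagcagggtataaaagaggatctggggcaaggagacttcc

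All 250 bases upstream of KRT75, a keratin of the companion layer of the hair follicle, were inside a peak in every list. At KRTAP1-5 the shared peak bases were the 96 next to the start, and they included a TATAAA match at -30 relative to the start, with upstream negative. At KRTAP4-6 and KRTAP4-2 the shared bases were instead the 110 and 103 farthest from the start, and the TATAAA matches at -32 in both lay outside them. KRTAP4-4 has its TATAAA match at the same place as KRTAP4-2, and over the 300 bases of the table, 250 before and 50 after the start, the pair was 85.4% identical in alignment. KRTAP4-6 also holds 1 TGAGTCA match, the core letters of the AP-1 motif, at -196 within the shared peak bases. These letter matches describe the sequence and do not show that a factor binds.

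Most members had no peak in any list. A peak was present at 41 members with vehicle (27.5%, interval 21 to 35.2), where 81.8% of all protein-coding genes had one. With belinostat it was 48 members (32.2%, 25.2 to 40.1) against 83.2% of all genes, with AsiDNA 48 (32.2%) against 82.8%, and with the combination 47 (31.5%) against 82.4%. The 4 member shares lie within each other's counting intervals, and all lie below the share of all genes. Across the lists 61 members had a peak in at least 1 (40.9%, against 86.1% of all genes). Of these, 34 members had a peak in every list (22.8%, against 79.1% of all genes) and 27 in some lists, while 88 members had none (59.1%, against 13.9% of all genes).

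The gap to other genes was then read for each family against genes within a range of length. Keratins, with a median length of 6433 bp, had a peak at 24 of 55 with vehicle (43.6%, 31.4 to 56.7), 32 with belinostat (58.2%), 28 with AsiDNA (50.9%) and 29 with the combination (52.7%). The 12053 protein-coding genes within the keratins' length range had one in 81.7%, 83.5%, 82.8% and 82.6%. Their median length was 16316 bp, so they are longer than the keratins and not matched to them in length. Keratin-associated genes, with a median length of 828.5 bp, had a peak at 17 of 94 with vehicle (18.1%, 11.6 to 27.1), 16 with belinostat (17%), 20 with AsiDNA (21.3%) and 18 with the combination (19.1%). The 912 protein-coding genes no longer than 1643 bp, the longest keratin-associated member, had one in 30.4%, 31.0%, 32.1% and 30.7%, a comparison added after the data were seen. Both family shares lay below those of their comparison genes in each list. For keratins the part of the difference in length was not tested. This did not hold for the 34 keratin-associated genes of chromosome 17 taken alone. They had a peak in 38.2%, 29.4%, 44.1% and 35.3% in the same order of lists, below the short genes with belinostat only. Their intervals include the short-gene values. Members were left out of both sets of comparison genes.

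**Figure D1:**
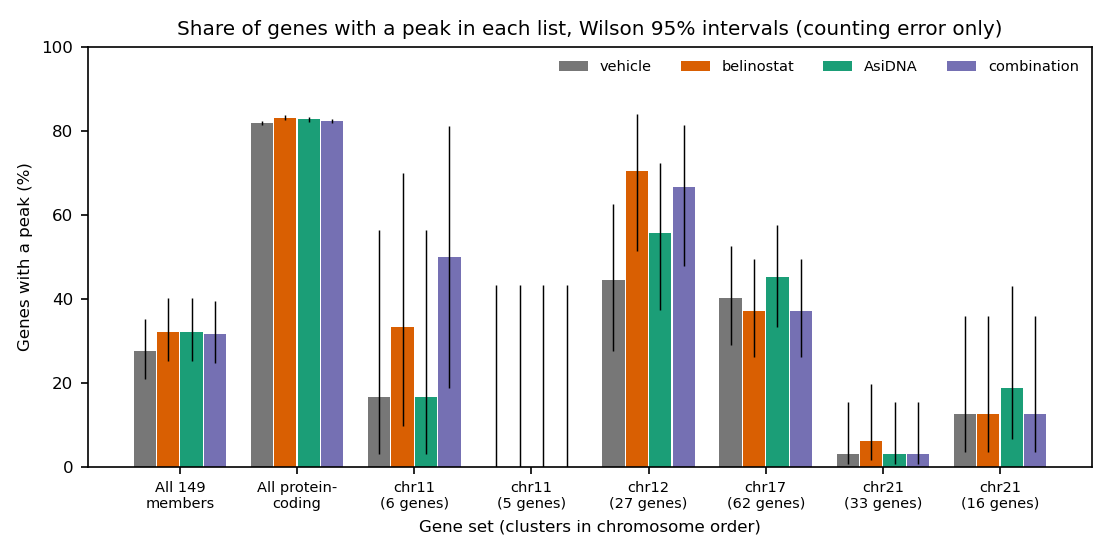
Percent of genes with a peak (vertical axis) in each of the 4 lists (bar colours) for all members, all protein-coding genes and the 6 clusters, with the number of genes under each cluster; error bars are Wilson 95% intervals. The chromosome 12 bars stand at 44.4% for vehicle and 70.4% for belinostat, while the larger chromosome 21 cluster stays between 3.03% and 6.06%.

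By cluster, the keratins of chromosome 12 had a peak at 12 of 27 with vehicle (44.4%, 27.6 to 62.7), 19 with belinostat (70.4%, 51.5 to 84.1), 15 with AsiDNA (55.6%, 37.3 to 72.4) and 18 with the combination (66.7%, 47.8 to 81.4). The intervals overlap. With only peaks within 1000 bp of a gene end counted, these numbers were 7, 9, 8 and 10. On chromosome 17 the 28 keratins had a peak at 12, 13, 13 and 11 in the same order of lists, and the 34 keratin-associated genes at 13, 10, 15 and 12. The 33 genes of the larger chromosome 21 cluster had a peak at 1, 2, 1 and 1, and the 16 within TSPEAR at 2, 2, 3 and 2. Of the 6 KRTAP5 genes nearer the end of chromosome 11, 1, 2, 1 and 3 had a peak. None of the 5 in the other chromosome 11 cluster had one in any list (upper bound of the interval 43.4%). This depends on the window, because the cluster held 5, 4, 4 and 5 peaks in the same order of lists. The nearest lay 1377 to 1410 bp from KRTAP5-11 and 1682 to 1794 bp from KRTAP5-10.

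The group most often held by every list was that listed as simple epithelial, mostly keratins of single-layered epithelia. It had 5 of 6, namely KRT7, KRT8, KRT18, KRT20 and KRT80. KRT8 (52670 bp), KRT80 (23019 bp) and KRT7 (22611 bp) are long against the keratin median of 6433 bp, which leaves more room for a peak. KRT20 counts by peaks 847, 869 and 965 bp outside the gene with vehicle, belinostat and the combination. With AsiDNA it also had a peak across an end. KRT19 had none, its nearest peaks lying 1486 to 1589 bp away. KRT8, the usual type II partner of KRT18, had 3 peaks with vehicle, 6 with belinostat, 3 with AsiDNA and 4 with the combination. Its strongest peak had a fold enrichment of 8.77 (percentile 79.2 of its list) with vehicle, 8.03 (66.8) with belinostat, 14.5 (96.7) with AsiDNA and 8.74 (69.3) with the combination. The combination value belongs to another peak, the one shared with KRT18, and the combination peak at the place of the other 3 had a fold of 8.45 (67.5). Fold enrichment is the value the authors' peak caller gave to a peak over its local background. It is not scaled between lists, so the percentile says only how a peak ranks in its own list. KRT18 neighbours KRT8, the gene table's spans of the pair overlap, and a peak across that overlap is present in every list (folds 4.49, 5.47, 5.68 and 8.74). The belinostat list has a second peak at KRT18, inside the gene, with a fold of 3.44. KRT80 carried 5 peaks with vehicle and 7 in each other list, the strongest across one gene end at folds of 9.96, 12.5, 9.39 and 14. KRT7 had 2, 4, 3 and 4 peaks, all inside the gene. KRT23, a type I keratin of chromosome 17 outside these groups, was also in every list, with a peak across one gene end at folds of 7.66, 15.7, 10.4 and 15.1 (percentiles 70.6, 95.8, 85.2 and 94.3).

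Keratins of stratified epithelia were held less evenly. Of the basal layer keratins, KRT14 and KRT15 had no peak in any list, and KRT5, the type II partner of KRT14, had one with belinostat (fold 6.72, percentile 56.1) and with the combination (6.93, 55.7). That peak, chr12:52513665-52513995 in the combination list, lay 580 bp past the 3′ end of KRT5, with its summit 6552 bp from the start. The nearest vehicle and AsiDNA peaks were 1476 and 1471 bp from the gene. Of the suprabasal keratins, KRT10 had a peak in every list at folds of 9.15, 13.7, 11.1 and 15.2 (percentiles 81.5, 91.9, 88.4 and 94.4), with its summit 3551 to 3620 bp downstream of the start, inside the gene. KRT1, the type II partner of KRT10, and KRT9 of palms and soles had none. Among keratins of stress and injury KRT16 had a peak across or within 66 bp of one end in every list (folds 8.91, 12.6, 10.6 and 9.89), KRT17 had a weak one with belinostat alone (3.39, percentile 10.8), and KRT6A, KRT6B and KRT6C had none. The mucosal list split into KRT13, KRT78 and KRT79 in every list and KRT4 and KRT76 in none.

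Hair keratins also split between the types. All 6 type II hair keratins had a peak with belinostat, 5 with AsiDNA, 5 with the combination and 3 with vehicle. KRT82, KRT84 and KRT86 were in every list. KRT85 had a peak with belinostat (fold 4.26) and the combination (4.64) across its 3′ end. KRT83 had one with belinostat (6.75) and AsiDNA (3.68). KRT81 lies within the span of KRT86, and its belinostat peak (3.67) was at another place than its AsiDNA and combination peaks (2.83 and 2.18, percentiles 3.60 and 0.148), so it shows no single site shared by the drug lists. Of the 11 type I hair keratins, KRT32, KRT33B and KRT34 were in every list, KRT35, KRT37 and KRT39 in some, and KRT31, KRT33A, KRT36, KRT38 and KRT40 in none. KRT32 held the highest keratin folds of all 4 lists, 13.3, 16.6, 15.3 and 16.9 (percentiles 96.4 to 97.7), at a summit 2441 to 2496 bp downstream of the start. The strongest peak of KRT33B lay 1982 to 1997 bp downstream, one at KRT34 1991 to 2024 bp and the peak of KRT39 2886 to 2899 bp downstream. Among the 9 inner root sheath keratins, KRT28, KRT71 and KRT75 were in every list, and KRT73 in every list but vehicle.

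**Figure D2:**
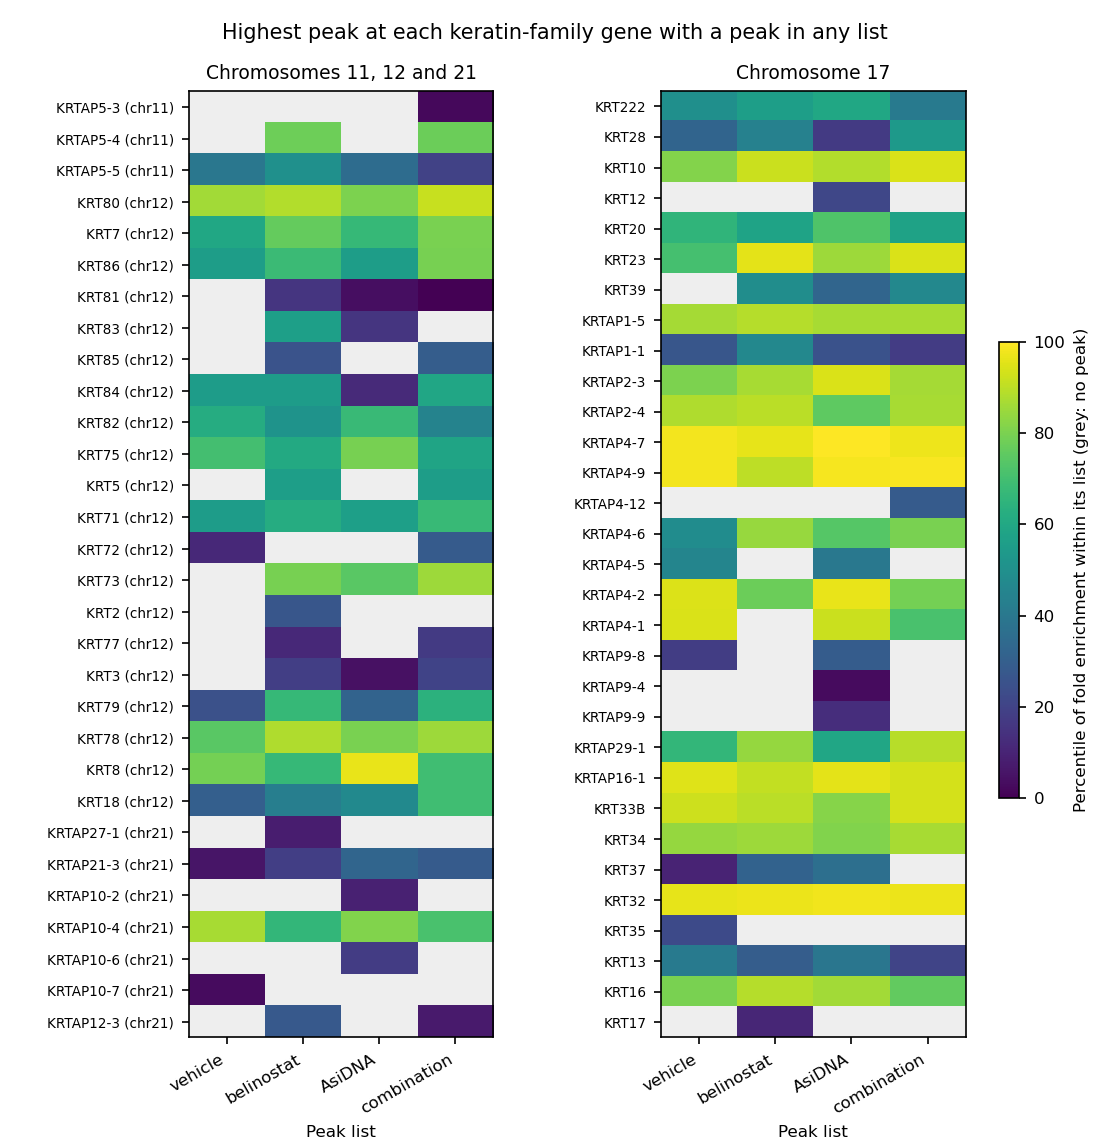
Each row is a member with a peak in at least 1 list and each column a peak list; colour gives the percentile of the strongest peak's fold enrichment within its own list, and grey marks no peak. KRTAP4-7, KRTAP4-9 and KRT32 are yellow in all 4 columns, while grey cells on chromosome 12 lie mostly in the vehicle and AsiDNA columns.

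The highest folds at keratin-associated genes were on chromosome 17. KRTAP4-7 had folds of 15.0 with vehicle, 16.0 with belinostat, 19.2 with AsiDNA and 17.1 with the combination (percentiles 98.4, 96.2, 99.7 and 97.3), and KRTAP4-9 had 14.9, 13.0, 16.4 and 19.4. KRTAP16-1 had 12.7, 13.3, 14.1 and 14.7, across its 3′ end. The KRTAP4 genes, which encode cysteine-rich matrix proteins, had a peak at 6 of 12 with vehicle, 4 with belinostat, 6 with AsiDNA and 6 with the combination. Subfamilies KRTAP3 (3 genes), KRTAP13 (4), KRTAP19 (8) and KRTAP20 (4) had none in any list. The only member of the larger chromosome 21 cluster in every list was KRTAP21-3, with folds of 3.03 to 4.67. KRTAP10-4 had folds of 10.1, 7.97, 9.52 and 9.02, and because it lies within TSPEAR its peaks cannot be assigned to one of these genes.

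Summits were placed against the start of each gene where the promoter table gives one. The summit lay within 1000 bp upstream in 8 of 15 vehicle peaks at keratin-associated genes, 7 of 15 belinostat peaks, 9 of 19 AsiDNA peaks and 7 of 16 combination peaks. At keratins this was so for 3 of 21, 3 of 31, 4 of 26 and 4 of 27 peaks. The families' shares are not comparable, because gene length sets how much of the counted window lies upstream. Median lengths were 828.5 bp for keratin-associated genes and 6433 bp for keratins, and no share over all genes was computed. Summits lay 535 to 573 bp upstream at KRTAP4-7, 600 to 634 bp at KRTAP4-9, 405 to 495 bp at KRTAP4-6, 286 to 381 bp at KRTAP4-2, 430 to 521 bp at KRTAP2-4 and 331 to 371 bp at KRTAP2-3, in all 4 lists. KRTAP4-1 had its summit 251 to 285 bp upstream in the 3 lists that held it. At KRTAP1-1 the summits differed in place, at -48 with vehicle, 141 with AsiDNA, 186 and 1822 with belinostat and 1817 with the combination, relative to the start. Of 114 members with a promoter in the table, a peak touched those 300 bases in at least 1 list at 15 and in every list at 6, namely KRT34, KRT75, KRTAP1-5, KRTAP2-3, KRTAP4-2 and KRTAP4-6.

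**Figure D3:**
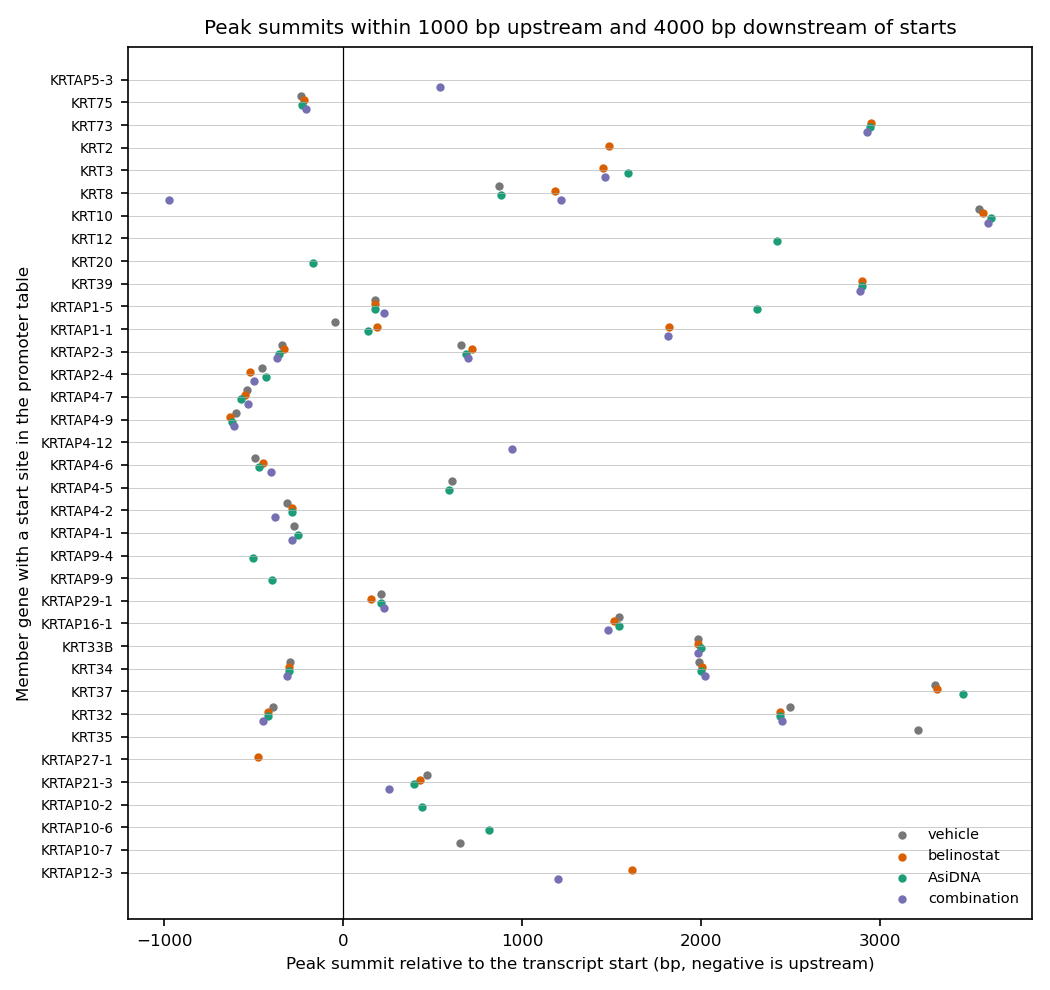
Distance of each peak summit from the transcript start in bp (horizontal axis, negative upstream, from 1000 bp upstream to 4000 bp downstream) for members with a start in the promoter table, coloured by list. Summits of KRTAP4-7, KRTAP4-9, KRTAP4-6, KRTAP4-2, KRTAP2-4 and KRTAP2-3 include a column upstream of the start, while KRT10, KRT33B and KRT39 lie well downstream.

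Some members without a peak are close copies of members with one. KRTAP4-7, in every list, was 88.8% identical over the 300 promoter bases to KRTAP4-8 and 87.9% to KRTAP4-11, neither of which had a peak in any list. KRTAP9-9, with a weak AsiDNA peak alone (fold 3.50, percentile 12.9), was 92.8% identical to KRTAP9-2, which had none. The peaks of KRTAP4-7 lay farther upstream and overlapped 24 of the compared bases with vehicle and 0 in each other list, so this identity does not describe the sequence under them. The KRTAP9-9 peak, with its summit at -396, also lay outside these bases. How reads that match several copies were handled is not given in the sources used here, and its part in these differences was not tested.

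Promoters of the members differed in composition from those of other genes, whether or not a peak was present. TATAAA, searched on both strands, was found in 84 of 114 (73.7%), against 9.64% of 15813 protein-coding promoters in the table. GGGCGG, the core of the GC box, was found in 6.14% against 58.5%, and the median number of CpG was 2.00 against 22. TGAGTCA was at the background, in 3.51% against 3.67%. Members held by every list, some lists and no list had TATAAA in 78.3%, 65.0% and 74.6%, and a median of 2.00 CpG each. The sites CCA, CCG and CCT, at which the nicking enzyme Nt.CviPII cuts, numbered a median of 27.0 in member promoters against 43.0 in all. Within the members they numbered 29.0 in those held by every list, 27.0 in some and 25.0 in none, and the part of this difference in the presence of peaks was not tested.

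Between belinostat and vehicle, 13 members had a peak with belinostat alone of the pair (2.95% of all genes did) and 6 with vehicle alone (1.60% of all genes). The 13 were KRT2, KRT3, KRT5, KRT17, KRT39, KRT73, KRT77, KRT81, KRT83, KRT85, KRTAP5-4, KRTAP12-3 and KRTAP27-1, with 8 of them on chromosome 12. The 6 were KRT35, KRT72, KRTAP4-1, KRTAP4-5, KRTAP9-8 and KRTAP10-7, with 4 on chromosome 17. Because most genes already had a vehicle peak, the share among genes that lacked one is the closer background. It was 12% for members (13 of 108, 7.17 to 19.5) and 16.2% for all genes, and the member interval includes the value of all genes. For keratins it was 32.3% (10 of 31) against 20.0% of genes in their length range, and for keratin-associated genes 3.90% (3 of 77) against 3.94% of the short genes. No interval is given for these family shares, so the keratin difference is not set against counting error. Of members with a vehicle peak, 14.6% (6 of 41, 6.88 to 28.4) had none with belinostat, against 1.95% of all genes. For keratins this was 8.33% (2 of 24) against 2.31% of genes in their length range, and for keratin-associated genes 23.5% (4 of 17) against 6.86% of the short genes.

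The other pairs of lists, which share lists with the first and are given side by side, follow. AsiDNA over vehicle had 10 members present in AsiDNA alone (2.19% of all genes) and 3 in vehicle alone (1.25%). The combination over vehicle had 11 (2.30%) and 5 (1.70%). The combination over AsiDNA, which uses neither list of the first pair, had 8 members present in the combination alone (1.76%) and 9 in AsiDNA alone (2.10%). The combination over belinostat had 4 (1.11%) and 5 (1.87%). Of the members that lacked an AsiDNA peak, 7.92% (8 of 101) had one with the combination, against 10.2% of all such genes. Of those with an AsiDNA peak, 18.8% (9 of 48, 10.2 to 31.9) had none with the combination, against 2.54%. The same shares were 9.26% gained against 12.1% and 7.32% lost against 1.52% for AsiDNA over vehicle, and 10.2% against 12.7% and 12.2% against 2.08% for the combination over vehicle. For the combination over belinostat they were 3.96% against 6.61% and 10.4% against 2.25%. In each pair, members with a peak in the second-named list were thus missing it in the first at a higher share than all genes. This count by genes is not matched for length, with a median of 1149 bp for members and 24170 bp for all genes. Keratins also exceeded genes of their length range, at 8.33% to 12.5% against 1.91% to 2.92%. These keratin shares rest on few genes. They were 2 of 24 in each pair with vehicle, 3 of 28 for the combination over AsiDNA and 4 of 32 over belinostat. The genes of their length range are longer, at a median of 16316 bp against 6433 bp. Among keratin-associated genes with a belinostat peak, 6.25% (1 of 16) had none with the combination, against 6.71% of the short genes. The share was 5.88% (1 of 17) against 2.89% for AsiDNA over vehicle. For the combination it was 17.6% (3 of 17) against 5.42% over vehicle and 30.0% (6 of 20) against 9.22% over AsiDNA. On chromosome 12 the combination over AsiDNA had 4 present and 1 absent, and on chromosome 17 it had 1 present and 6 absent, against 8 and 1, and 2 and 4, for belinostat over vehicle. Counted by peaks, 26 of the 76 belinostat peaks at members (34.2%) had no overlapping vehicle peak, against 23.9% of all belinostat peaks. Of the 58 vehicle peaks at members, 8 (13.8%) had no overlapping belinostat peak, against 19.0% of all vehicle peaks. For peaks lost with belinostat, the count by peaks thus ran opposite to the count by genes. The share over all peaks was not computed for the other pairs.

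Over all 4 lists, 5 members had a peak in the belinostat and combination lists alone (0.731% of all genes), namely KRT5, KRT77, KRT85, KRTAP5-4 and KRTAP12-3. KRTAP5-4 owes its place to the edge of the window. Its nearest peaks lay 988 and 968 bp away with belinostat and the combination, and 1005 and 1001 bp with vehicle and AsiDNA, all in 1 merged region with folds of 7.89 to 10.1. KRT77 had folds of 3.46 and 3.90 inside the gene, and KRTAP12-3 had 4.40 and 3.23 at 631 and 697 bp beyond its end, within TSPEAR. The reverse pattern, vehicle and AsiDNA alone, was held by KRTAP4-5 and KRTAP9-8 (0.586% of all genes). KRTAP4-5 had folds of 5.44 with vehicle and 5.14 with AsiDNA inside the gene, and its nearest belinostat and combination peaks were 7695 and 7715 bp away.

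Peaks in every list but vehicle were present at KRT3, KRT39, KRT73 and KRT81 (0.946% of all genes). KRT73, an inner root sheath keratin, had the strongest of these, with folds of 10.2 with belinostat, 8.50 with AsiDNA and 12 with the combination (percentiles 79.6, 74.4 and 85.4) at a summit 2927 to 2948 bp downstream of the start, and its nearest vehicle peak was 3972 bp away. KRTAP4-1 was the only member in every list but belinostat (0.396% of all genes), with folds of 12.3, 12.1 and 9.0 in the vehicle, AsiDNA and combination lists. Its nearest belinostat peak was 4948 bp away. KRT37 was in every list but the combination (0.451%).

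Members of 1 list alone had mostly weak peaks. AsiDNA alone held KRT12, a keratin of the cornea, KRTAP9-4, KRTAP9-9, KRTAP10-2 and KRTAP10-6 (0.751% of all genes), at folds of 2.80 to 3.97. Belinostat alone held KRT2, KRT17 and KRTAP27-1 (0.961%), at 4.35, 3.39 and 3.22. The combination alone held KRTAP4-12 (4.62) and KRTAP5-3 (2.77) (0.446%), and vehicle alone KRT35 (4.02) and KRTAP10-7 (2.79) (0.526%). KRT83 was in belinostat and AsiDNA (0.315%), and KRT72 in vehicle and the combination (0.0901%). No member was in AsiDNA and the combination alone (0.180% of all genes), in vehicle and belinostat alone (0.140%) or in every list but AsiDNA (0.491%).

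**Figure D4:**
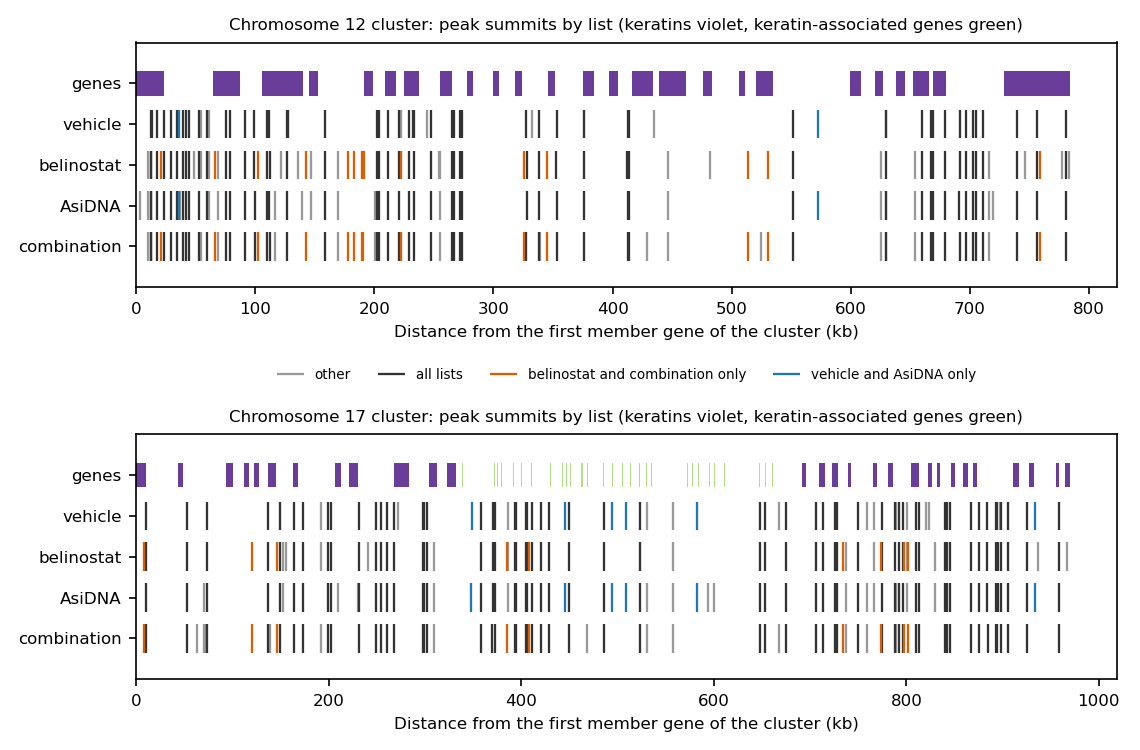
Peak summits in the 4 lists (rows) along the chromosome 12 and chromosome 17 clusters, by distance in kb from the first member gene; bars in the top row are genes (keratins violet, keratin-associated genes green) and tick colours give the lists that hold a region. Of 99 merged regions on chromosome 12, 14 are held by belinostat and the combination only (orange) and 2 by vehicle and AsiDNA only (blue).

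All peaks between the first and last member of a cluster, at members or between them, gave the same order on chromosome 12. There were 61 vehicle peaks (77.8 per Mb, 59.5 to 100), 84 belinostat peaks (107, 85.5 to 133), 69 AsiDNA peaks (88.0) and 80 combination peaks (102). The 500 kb on either side, measured after the data were seen, had 107, 125, 109 and 123 per Mb, so the flanks had the same order of lists. Chromosome 12 as a whole had 44.3 to 47.2 per Mb, below the cluster in each list. On chromosome 17 the cluster had 75, 78, 78 and 78 peaks (77.3 to 80.4 per Mb), below its flanks at 117 to 131 per Mb. This was above chromosome 17 as a whole, at 60.9 to 67.7 per Mb. The larger chromosome 21 cluster had 15, 19, 16 and 16 peaks (19.8 to 25.1 per Mb), below its flanks at 39.0 to 53.0 and below the 44.0 to 46.9 per Mb of all chromosomes. It also held the longest stretch without a peak of any list, 121 kb, which spans KRTAP21-2, KRTAP21-1, KRTAP8-1 and KRTAP7-1. On chromosome 12 the longest such stretch was 52.6 kb around KRT76.

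Merged over the lists, the chromosome 12 cluster had 99 regions, of which 50 were held by every list, 14 by belinostat and the combination only (14.1%, 8.61 to 22.3) and 2 by vehicle and AsiDNA only (2.02%, 0.556 to 7.07). Over all chromosomes these patterns made up 6.09% and 5.04% of regions. The flanks of this cluster had 11 of 151 (7.28%, 4.12 to 12.6) and 5 of 151 (3.31%, 1.42 to 7.52). For the belinostat and combination pattern, the flanks of the other clusters ranged from 3.17% to 14.2%. The lowest was at the larger chromosome 21 cluster and the highest, 16 of 113 (8.91 to 21.8), at the 6 KRTAP5 genes of chromosome 11. A share of this size was thus not particular to the chromosome 12 cluster. On chromosome 17 the cluster had 9 of 102 (8.82%, 4.71 to 15.9) and 6 of 102 (5.88%, 2.72 to 12.2), with intervals that include the values of all chromosomes.

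**Figure D5:**
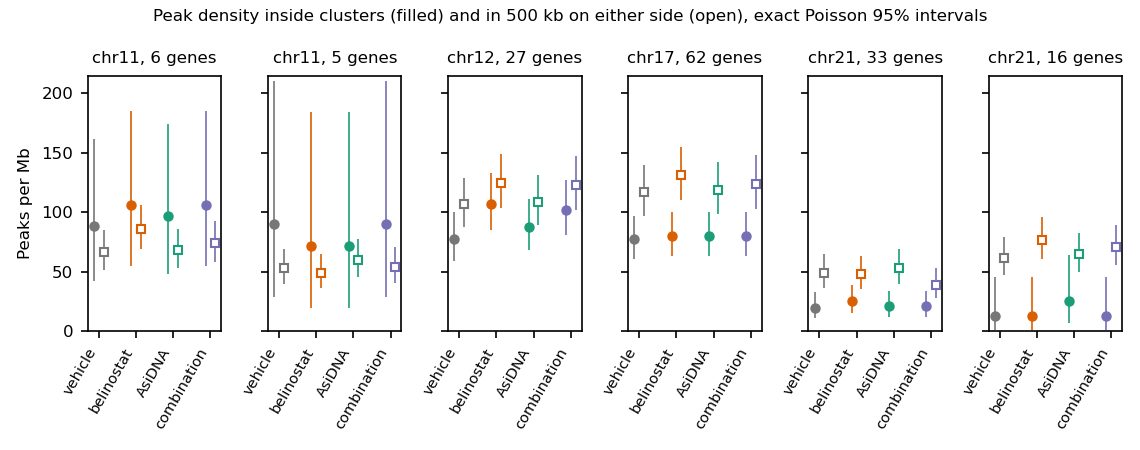
Peaks per Mb (vertical axis) in each list (colours) for the 6 clusters, inside the cluster (filled circles) and in the 500 kb on either side (open squares), with exact Poisson 95% intervals. Both chromosome 21 clusters lie below their flanks in every list, and inside the chromosome 12 cluster the belinostat value of 107 per Mb stands above the vehicle value of 77.8.

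Genes that work with keratins outside the family were read against the 79.1% of all protein-coding genes that had a peak in every list. Of 13 other intermediate filament genes, 12 had a peak in every list, among them VIM, NES and GFAP, and PRPH was missing from the combination list. Of 16 desmosome and plakin genes, whose proteins anchor keratin filaments, 12 were in every list and DSC1 and DSC2 in none. Of 20 regulators of epithelial and hair genes 15 were in every list, among them TP63, GRHL2 and FOXN1, and DLX3, MSX2 and OVOL2 in none. Of 8 hair and cornified envelope genes found in the gene table, TGM1, TGM3, TGM5 and TGM6 were in every list, TCHH in the AsiDNA list alone, and FLG, IVL and TCHHL1 in none.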

How the data were processed

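Per the labels' protocols, nuclei of formaldehyde-fixed cells were nicked with Nt.CviPII, filled in with biotinylated nucleotides by DNA polymerase I, and the biotin-bearing fragments were pulled down on streptavidin. The submitters' processing notes name hg38 and the tools Trim Galore 0.5.0, Picard, SAMtools, Bowtie2, deepTools and MACS2. Options, control input and the pooling of libraries were not given in these sources. Each deposited peak carries a fold enrichment, a ratio to local background, a q-value on the −log10 scale and a score equal to −log10 of its p-value, all set by the authors' peak caller. These rank or filter peaks within a list only. List length also depends on read depth, and no counts were used.

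Gene spans came from the RefSeq gene table of GRCh38.p14, the build of the files, with 1 start and end per gene. Strand and transcript start were known for the 114 members in the promoter table and not for 35. Peaks on chromosomes 1 to 22 and X entered. A peak belonged to a gene when it overlapped the gene extended by 1000 bp by at least 1 bp. A peak was shared when it overlapped one of the other list by at least 1 bp, and overlapping peaks were merged into regions. Members were named when their presence differed among lists, when they ranked among the 4 highest of their cluster in every list, or as KRT5, KRT8, KRT14 and KRT18. The members, groups, partner and marker lists were chosen with earlier results of these data known. Promoter identity came from global pairwise alignment. Protein features were not analysed here. Flanks of 500 kb, the short-gene background and distances to the nearest peak were added after seeing the data. The keratin length range, the shares among genes that could gain or lose a peak, and promoter identity were also outside the plan. The planned background was the protein-coding genes within the length range of all members. They had a peak in 76.4% with vehicle, 78.3% with belinostat, 77.6% with AsiDNA and 77.3% with the combination.

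Gene calls on chromosome 21 were checked against a direct search and differed at 0 of 239 genes. Of 5000 patterns planted in simulated regions, 100% were recovered. The planted regions stood well apart, so this checked the code and not the merging of peaks that lie close together. Software was Python 3.11.15 with pandas 2.3.3, numpy 2.4.6, scipy 1.17.1, Biopython 1.88 and matplotlib 3.10.9. Alternatives tried were a stricter q threshold, lists of equal length, other windows, summits, merged regions, other overlaps and other cluster gaps.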

Additional observations from a re-analysis of the deposited data

Results flagged for a closer look

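At KRT83 and KRT72 the effect of belinostat on the presence of a peak ran in opposite directions without and with AsiDNA, each judged from 1 list per group, and the difference was not tested. KRT83 had a peak inside the gene with belinostat (fold 6.75) and with AsiDNA (3.68), and none with vehicle or the combination. KRT72 had a peak 408 bp beyond its end with vehicle (fold 3.38) and another inside the gene with the combination (4.62), and none with belinostat or AsiDNA. The KRT72 peaks do not overlap, so no single site carries this pattern.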

How the results depend on the processing

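Over 321 recomputed values, 276 stayed within 1.5 times the reported value and 45 did not. No setting turned the direction of the chromosome 12 difference, where vehicle and belinostat had 12 and 19 members with a peak. Counting only peaks near gene ends moved the chromosome 12 counts to 7 (vehicle), 9 (belinostat), 8 (AsiDNA) and 10 (combination) of 27, members with a belinostat peak but no vehicle peak from 13 to 7, members with a belinostat peak but no combination peak from 5 to 2, and members of every list but vehicle from 4 to 2. 

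Requiring −log10 q of 5 or more moved members with vehicle but no belinostat peak from 6 to 3, with vehicle but no combination peak from 5 to 2, and those of vehicle and AsiDNA only from 2 to 1. In the 4 clusters of keratin-associated genes alone, it moved members with a peak from 4 to 2 with vehicle and from 5 to 3 with AsiDNA. The median CpG of promoters of members in some lists moved from 2.00 to 1.00, and the AsiDNA peaks per Mb of the chromosome 21 cluster within TSPEAR from 25.1 to 6.29.

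A window of 2000 bp moved members lost in these pairs to 10 (belinostat over vehicle), 8 (combination over vehicle), 14 (combination over AsiDNA) and 9 (combination over belinostat), the vehicle and AsiDNA pattern to 5, and the 4 keratin-associated clusters to 9 (vehicle), 12 (belinostat), 11 (AsiDNA) and 10 (combination). A window of 500 bp moved members gained in the combination over AsiDNA from 8 to 5, the pattern of both belinostat lists from 5 to 2, and the 4 keratin-associated clusters to 3 with belinostat and 3 with the combination. Requiring the summit in the window moved the pattern of both belinostat lists to 3.

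Counting presence only at −log10 q of 5 or more and absence only with no peak left out 18 members. Gained and lost members then numbered 7 and 3 (belinostat over vehicle), 4 and 1 (AsiDNA over vehicle), 6 and 2 (combination over vehicle), 4 and 3 (combination over AsiDNA) and 2 and 2 (combination over belinostat). The patterns of both belinostat lists, of vehicle and AsiDNA, and of every list but vehicle numbered 3, 1 and 2. The 4 keratin-associated clusters had 2 (vehicle), 3 (belinostat), 2 (AsiDNA) and 3 (combination). Of the 27 members in some lists, 3 (KRTAP4-1, KRTAP4-5 and KRTAP4-12) kept their pattern in all 7 settings that redefined presence, and 15 lost it at the stricter threshold. Lists cut to equal length and merged regions changed no reported count by over 1.5 times.

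No paired analysis was possible because each group has 1 deposited list, and for the same reason no replicate was left out. Depth per library is unknown.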
